A study of Mus musculus with 7899 samples.

Results

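The genes described here are 43 genes of protein folding in the endoplasmic reticulum (ER), of the unfolded protein response and of ER-associated degradation (ERAD). They were taken by gene symbol from read-count tables of single mouse pancreatic β cells that list up to 21767 genes. All 43 were found in 6 of the 7 tables and 40 in the seventh, that of the Stat3 knockout. The cells came from female C57BL/6J mice and were read with Smart-seq3xpress, a full-length single-cell RNA-seq method. Here the reads of 7897 cells were summed by group and replicate into 100 libraries of 48 groups.

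The time course held β cells from mice on a standard diet at G0, on 9 gestation days, and on days 2, 7 and 14 after birth. The early days were G3.5, G5.5, G6.5 and G8.5, the middle days G10.5 and G12.5, and the late days G14.5, G16.5 and G18.5. The days after birth were sampled in a group marked L and a group marked NL, read here as lactating and not lactating because the labels do not spell the letters out. Knockout sets compared Acss2 knockout and Acss2 WT cells at G0, G14.5 and G18.5, Stat3 knockout and Stat3 WT cells on the same days, and p300 knockout with p300 WT cells, both at G0 and on G14.5. The high-fat diet (HFD) set held mice without a genotype label at G0, G14.5 and P7NL, Acss2 knockout and Acss2 WT mice at G0 and G14.5, and an Acss2 WT group on a standard diet (SD) at G14.5. In the culture sets islets were kept for 4 days in medium with 20% human serum, either maternal (MS) or normal (NS), and with 5 µM A485, 20 µM nifuroxazide (Nif) or the vehicle DMSO. A485 inhibits the histone acetyltransferases p300 and CBP, and nifuroxazide is used as an inhibitor of STAT3 signalling. Each group had 2 replicates, except for 3 at G14.5, G18.5, P14L and HFD G14.5. The labels name no ages, no sort markers and no Cre drivers for the knockouts.

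The β cell makes and folds proinsulin in the ER, where chaperones hold the chain, oxidases and disulfide isomerases form its disulfide bonds, and misfolded chains are pulled back to the cytosol for degradation by ERAD. Load on the ER is sensed by IRE1α (Ern1), PERK (Eif2ak3) and ATF6. Active IRE1α removes a short intron from Xbp1 mRNA, and the XBP1 and ATF6 proteins then switch on genes for chaperones and ERAD. Reads counted per gene do not separate spliced from unspliced Xbp1.

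The genes were chosen by function and not by promoter sequence, but the 2 are not independent. Genes for chaperones and ERAD are switched on by ATF6 and XBP1. Finding elements of these factors in their promoters is therefore a description and no independent support. The ER stress response element (ERSE: CCAAT, any 9 bases, then CCACG) is a site through which ATF6 and XBP1 act, and not the only such site. RefSeq promoters of mouse build GRCm38.p6, 250 bases before to 50 after the start, were found for 38 of the 43 genes and were searched on both strands for exact matches. The ERSE was present in 10 of these 38, against 37 of 27025 genes in the whole promoter table (0.137%). The 10 are Hspa5, Hsp90b1, Dnajc3, Creld2, Calr, Canx, Pdia6, Ero1lb, Syvn1 and Derl3, and Hsp90b1 held it 2 times. The stretches shown first belong to 4 of these genes whose reads rose at G14.5 and the last 3 to those whose reads did not pass the test. Capitals mark the element, and each stretch reads 5′ to 3′ on the gene's strand, so CGTGG and ATTGG are the same element on the other strand.
Hspa5, chr2:34772013-34772055, plus strand: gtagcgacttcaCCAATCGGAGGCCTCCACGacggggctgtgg
Derl3, chr10:75893230-75893272, plus strand: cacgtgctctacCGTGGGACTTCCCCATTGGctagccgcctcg
Calr, chr8:84847063-84847105, minus strand: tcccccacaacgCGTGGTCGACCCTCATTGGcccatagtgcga
Hsp90b1, chr10:86705521-86705563, minus strand: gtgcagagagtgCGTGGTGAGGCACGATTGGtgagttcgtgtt
Canx, chr11:50325788-50325830, minus strand: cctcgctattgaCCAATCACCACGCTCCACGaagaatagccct
Ero1lb, chr13:12565670-12565712, plus strand: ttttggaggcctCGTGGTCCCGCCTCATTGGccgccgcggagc
Syvn1, chr19:6046520-6046562, plus strand: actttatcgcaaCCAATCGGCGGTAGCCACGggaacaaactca
Counted from the gene's start, the element begins at -65 in Hspa5, -156 in Derl3, -162 in Calr and -107 in Hsp90b1. It begins at -145 in Canx, -201 in Ero1lb and -44 in Syvn1. At G14.5 against G0, 7 of the 10 genes with the element passed the test as higher (5.96% of all genes did), against 14 of 28 with a promoter but no element and 3 of 5 with no promoter in the table. Of the other genes with an ERSE, 12 were tested, 1 was higher (Hnrnpa3) and 1 lower (Pan2). Other elements of the response were rarer among the members. ERSE-II (ATTGG, 1 base, CCACG) was in Dnajb11 and Herpud1 and in 0.0444% of all genes, and the 8-base unfolded protein response element was in Txndc5 and Txndc11 and in 0.714% of all genes. A match is a description of these letters and not evidence of binding.

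Libraries held 21 to 160 cells and 13273435 to 181405413 reads counted to genes, and time-course libraries at least 25623339. In each time-course library the β-cell markers took most reads, with Ins1 and Ins2 alone at 46.3% to 61.5%. For acinar cells, a type rich in ER, 21 markers were listed, of which 20 were found in the HFD set. Summed levels of the acinar markers found were 0.257 to 13.5 CPM (read counts scaled to the library total) in the time course. They reached 517 CPM in 1 library, HFD G14.5 Acss2 knockout replicate 1. Plasma cell markers, another ER-rich type, summed to 0.260 to 6.35 CPM in the time course. Both G8.5 libraries stood apart in hepatocyte transcripts, with 570 and 390 CPM against 3.54 to 61.2 CPM in the other time-course libraries. The targeted genes followed their labels in part. Acss2 was at 10.7 and 9.22 CPM in the knockout against 18.8 and 24.7 in the WT at G0, 17.8 and 18.7 against 27.5 and 43.4 at G14.5, and 25.1 and 17.5 against 28.04 and 22.96 at G18.5, where the groups overlap. Ep300 was lower in both p300 knockout groups (13.1 to 20.4 CPM against 24.6 to 39.9). Stat3 was at 67.9 and 44.6 CPM in the knockout against 65.7 and 66.8 at G0, so those libraries are named by their labels only. The labels do not say which exons were deleted. The labels call replicates 1 and 2 biological and give the third no such word, so p-values measure the spread between libraries that may in part be technical.

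In β cells of G14.5, genes of all but 1 role of the ER machinery rose against G0. Of the 43 members, 24 were called higher and none lower by edgeR's quasi-likelihood test (Benjamini-Hochberg adjusted p under 0.05 over 15373 genes), and 39 of 43 fold changes were positive. Among all genes tested, 5.96% were called higher. The median log2 fold change was 0.63 over the members and 0.01 over all genes. Chaperones and their partners led with 9 of 10 called, followed by 5 of 9 disulfide isomerases and oxidases, 4 of 10 ERAD genes, 2 of 3 genes of the lectin chaperone cycle, 2 of 3 prolyl isomerases, 2 of 7 sensors and transcription factors, and not Ufm1, a ubiquitin-like modifier. Reads of Hspa5, Hsp90b1, Manf, Calr, Uggt1, P4hb, Pdia3, Pdia6 and Edem2, all called higher, were in 100% of cells of each library on both days, so their sums did not rise through more cells with reads. How the rise was shared out among cells was not tested.

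Among ERAD genes, Derl3, a derlin of the ER membrane channel (chr10:75893398-75895941, GRCm38.p6), had the largest change. It was at 5.06 and 7.25 CPM at G0 and at 25.3, 30.8 and 35.4 CPM at G14.5. All G14.5 libraries were above both G0 libraries, and the log2 fold change was 2.33 ± 0.34 (SE; adjusted p = 2.57e-05). Reads of Derl3 were present in 31.9% and 45.7% of G0 cells and in 68.6% to 84.1% of G14.5 cells. Median reads per cell were 748051 and 907705 at G0 and 845153 to 1223698 at G14.5. The part of this depth in the shares of cells was not tested. Edem1, which picks mannose-trimmed glycoproteins for degradation (chr6:108824045-108859356), was at 43.6 and 45.9 CPM and then at 119.1, 102.9 and 122.02 CPM. The groups did not overlap, with a log2 fold change of 1.36 ± 0.15 (adjusted p = 2.99e-07). Its relatives Edem3 (0.70 ± 0.23, adjusted p = 0.0497) and Edem2 (0.46 ± 0.15) rose less. The core of the ERAD ligase complex was flat by comparison: Syvn1, the ubiquitin ligase HRD1, had a log2 fold change of 0.02 ± 0.22, its adaptor Sel1l 0.28 ± 0.13, Herpud1 -0.05 ± 0.17 and Derl2 -0.03 ± 0.13, and none passed the test. Derl1 (0.38 ± 0.13) and the lectin Os9 (0.21 ± 0.13) did not pass it either.

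Chaperones rose together. Sdf2l1, a partner of the BiP cycle (chr16:17130138-17132383), was at 73.2 and 84.3 CPM at G0 and at 160, 203 and 224 CPM at G14.5, with every G14.5 library above both G0 libraries (1.31 ± 0.23, adjusted p = 0.000295). Dnajb11, a J-protein that delivers clients to BiP (chr16:22857845-22879634), went from 57.3 and 61.3 to 136.5, 121.1 and 151.4 CPM with no overlap (1.20 ± 0.17, adjusted p = 1.12e-05). Hspa5, which is BiP itself and the most abundant chaperone of the list at G0 (294 CPM per kb), was at 721 and 816 CPM and then at 1122, 1077 and 1280 CPM. Its groups did not overlap either, but the change was small (0.59 ± 0.17, adjusted p = 0.0218) and the call was lost without G0 replicate 1, G0 replicate 2 or G14.5 replicate 3. Dnajc3 (1.00 ± 0.14), the secreted ER factor Manf (0.95 ± 0.18), the HSP90 of the ER Hsp90b1 (0.91 ± 0.13), Hspa13 (0.85 ± 0.23), the nucleotide exchange factor Hyou1 (0.75 ± 0.21) and Creld2 (0.68 ± 0.19) were also higher. Hyou1 overlapped between the groups, at 69.03 and 80.1 against 128.2, 77.3 and 169 CPM. Dnajb9, at 176 and 216 against 316, 236 and 511 CPM, had a change of 0.85 ± 0.29 that did not pass the test (adjusted p = 0.0601). In the lectin cycle Calr, the soluble calreticulin, rose by 0.85 ± 0.14 and the folding sensor Uggt1 by 0.39 ± 0.11, while the membrane-bound calnexin Canx was at 0.02 ± 0.10.

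Enzymes of proline and disulfide bonds divided in the same way. Fkbp11, a secretory-pathway prolyl isomerase (chr15:98724368-98728198), was at 36.9 and 53.3 CPM at G0 and at 158.2, 150 and 193 CPM at G14.5. The lowest G14.5 library was far above the highest G0 library, and the log2 fold change was 1.89 ± 0.26 (adjusted p = 8.96e-06). Ppib, cyclophilin B, rose by 1.05 ± 0.24, and Fkbp2 (0.36 ± 0.13), the member with the most reads per length at G0 (613 CPM per kb), did not pass the test. The disulfide isomerases Pdia4 (1.03 ± 0.21), Pdia3 (0.86 ± 0.16), Pdia6 (0.77 ± 0.18), P4hb (0.66 ± 0.11) and Txndc5 (0.63 ± 0.13) were called higher. The oxidases that recharge them were not. Ero1lb, the form abundant in β cells (chr13:12565818-12609533; 336 CPM per kb at G0), was at 1163 and 1687 CPM at G0 and at 1392, 1069 and 1475 CPM at G14.5, overlapping groups with a log2 fold change of -0.12 ± 0.17. Ero1l, the widely expressed form, was at 12.8 and 16.45 against 15.3, 19.2 and 20.6 CPM (0.34 ± 0.20), which overlaps too.

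Of the 3 sensors, Ern1 and Eif2ak3 were called higher and Atf6 was not. Ern1 (chr11:106397620-106487796) was at 29.96 and 48.2 CPM at G0 and at 78.4, 86.97 and 106.8 CPM at G14.5, without overlap (1.22 ± 0.19, adjusted p = 4.97e-05). Eif2ak3 was at 12.3 and 15.8 CPM and then at 24.04, 20.7 and 32.8 CPM (0.89 ± 0.26, adjusted p = 0.0261). Both are scarce mRNAs, at 5.63 and 3.11 CPM per kb at G0 against 106.03 for Xbp1. Atf6 was at 50.97 and 56.2 against 80.4, 59.8 and 72.3 CPM, a change of 0.40 ± 0.16 that did not pass the test (adjusted p = 0.107) although the groups did not overlap. Xbp1 (chr11:5520641-5525993) was nearly level, at 227 and 225 against 229, 279 and 272 CPM (0.21 ± 0.17, adjusted p = 0.504). Atf6b (0.44 ± 0.17), the secretory transcription factor Bhlha15 (0.26 ± 0.33), Wfs1 (0.16 ± 0.15), Pdia5 (0.50 ± 0.18), Txndc11 (-0.06 ± 0.22) and Ufm1 (0.27 ± 0.12) did not pass it.

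The G14.5 count ran from 15 without G0 replicate 1, through 17 without G14.5 replicate 3, to 27 without G14.5 replicate 2. Of the 24 members, 14 were called under every alternative tried, Derl3, Fkbp11, Edem1, Ern1, Sdf2l1, Dnajb11, Calr and P4hb among them. Levels of other endocrine cells moved between these libraries: summed α-cell markers were at 1598 and 3168 CPM at G0 and at 971 to 1575 CPM at G14.5, with 1 of 9 called higher and 3 lower, and summed δ-cell markers were at 263 and 775 against 34.3 to 149.3 CPM. Immune markers summed to 31.6 and 60.2 against 66.8 to 128.5 CPM, with 1 of 9 called higher, and no acinar or plasma cell marker was called. Their part in the result was not tested. When cells rich in other hormones or acinar transcripts were left out, the count was 24 or within 1.5 times of it. That filter does not look at immune transcripts.

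**Figure D1:**
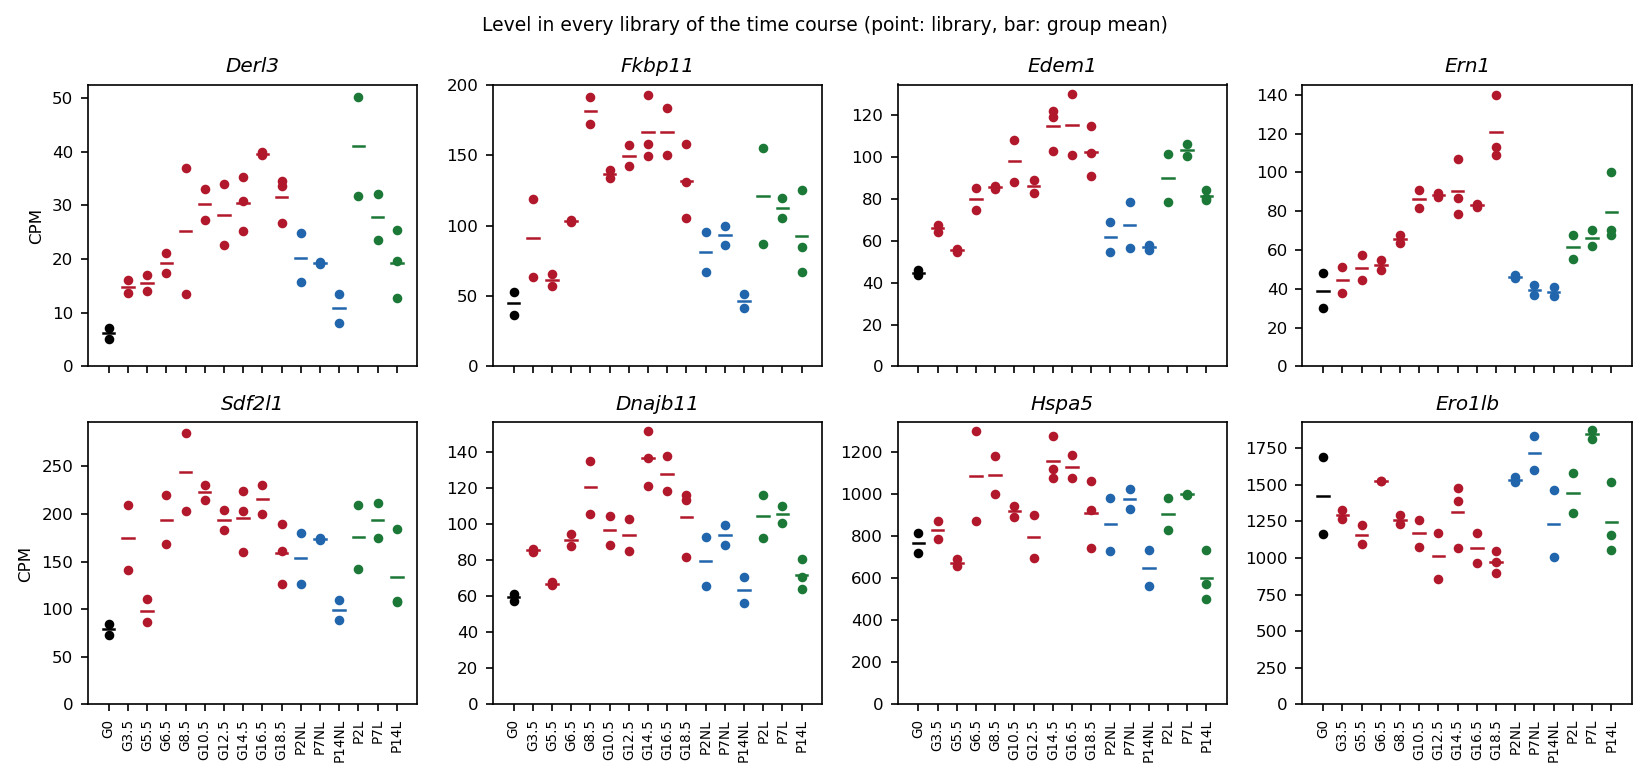
CPM (vertical axis) of 8 members in every library of the time course, by day (horizontal axis), with 1 point per library and a bar at each group mean. Derl3 rises from 5.06 and 7.25 CPM at G0 to 39.5 and 39.9 CPM at G16.5, and Ero1lb shows no rise over gestation.

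Wider ER pathway genes that are not members were counted at G14.5 in lists chosen by function, to be read against the 5.96% of all genes called higher. Of 31 other folding and thiol genes, 5 were called higher, with Cnpy2 (0.82), Erp44 (0.73), Sep15 (0.73) and Erp29 (0.52) the largest of them in log2 fold change. Of 20 other ERAD genes tested, 3 were higher: Ube2j1 (0.70), Selk (0.69) and the AAA ATPase Vcp (0.39). Of 20 other genes listed with regulators of the unfolded protein response, 3 were higher and 1 lower. Those higher were Eif2s1 (0.71), the translation factor subunit that PERK phosphorylates, the transcription factor Creb3l1 (0.49), and Rpn1 (0.59), which is a subunit of the oligosaccharyltransferase and not a regulator of the response. Creb3l2 (-0.47) was lower. Of 7 UFMylation genes, Ufc1 (0.44) was higher. Among mRNAs linked to the PERK branch, Atf4, Ddit3, Ppp1r15a and Trib3 did not pass edgeR's test. Atf4 had a log2 fold change of 0.42 ± 0.17 (adjusted p = 0.135), Ddit3 -0.28 ± 0.23, Ppp1r15a -0.06 ± 0.25 and Trib3 1.35 ± 0.67 (adjusted p = 0.220). The error of Trib3 was wide, and these values do not show that the branch was unchanged.

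Over gestation the number of members called went up and down from day to day, all against the same 2 G0 libraries. At G3.5, 4 members were higher (0.423% of all genes): Sdf2l1 (1.15 ± 0.25), Creld2 (0.92 ± 0.21), Txndc5 (0.64 ± 0.14) and P4hb (0.55 ± 0.12). At G5.5 Derl3 alone passed (1.35 ± 0.35, with 0.982% of all genes called higher). At G6.5 15 members were higher (1.22%), led by Derl3 (1.66 ± 0.35), Sdf2l1 (1.30 ± 0.25), Fkbp11 (1.20 ± 0.27), Ppib (1.04 ± 0.25) and Creld2 (1.02 ± 0.21). These early counts were the least steady. The G3.5 count was 0 without either G0 library or G3.5 replicate 2, the G5.5 count was 0 without any 1 of its 4 libraries, and the G6.5 count was 0 or 7 without the first or the second G0 library, 3 without G6.5 replicate 1 and 8 without G6.5 replicate 2.

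At G8.5, 24 members were higher (3.69% of all genes), with Derl3 (2.06 ± 0.36), Fkbp11 (2.02 ± 0.27), Sdf2l1 (1.63 ± 0.25), Ppib (1.22 ± 0.25) and Pdia6 (1.16 ± 0.20) in front. The G8.5 libraries carried the hepatocyte transcripts named above, with 6 of 12 hepatocyte markers called higher, and the part of that RNA in the member counts was not tested. Counts were lower, at 15 at G10.5 (1.90%) and 14 at G12.5 (3.28%), led at both by Derl3 (2.32 ± 0.36 and 2.22 ± 0.36) and Fkbp11 (1.60 ± 0.27 and 1.74 ± 0.27). Ern1 was called at both (1.15 ± 0.20 and 1.18 ± 0.20). At G16.5, 21 were higher (4.48%), and Derl3 reached its largest change in gestation (2.71 ± 0.36; 39.5 and 39.9 CPM). Without 1 library the G8.5 count fell as far as 12 (without G8.5 replicate 1) and 15 (without G0 replicate 1), the G10.5 count to 7 (without G0 replicate 1), 9 (without G10.5 replicate 1) and 10, the G12.5 count to 7 (without G12.5 replicate 2) and 9 (without either G0 library), and the G16.5 count to 13 (without G16.5 replicate 2) and 14 (without G0 replicate 1).

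At G18.5, the last gestation day sampled, 13 members were higher (3.27% of all genes) and 1 lower (1.50%). Ern1 stood at its highest of the time course, at 113.1, 139.8 and 108.9 CPM (1.63 ± 0.19 against G0), and Derl3 (2.38 ± 0.34), Fkbp11 (1.55 ± 0.26) and Edem1 (1.20 ± 0.15) were still raised. The member called lower was Ero1lb, at 895, 1048 and 972 CPM against 1163 and 1687 at G0 (-0.55 ± 0.17, adjusted p = 0.0468). Set directly against G14.5, no member was called by edgeR (0.176% of all genes were), with 18 members at an unadjusted p under 0.05, 5 called by DESeq2, and 9 called by edgeR without G14.5 replicate 2. No share of all genes is given for these other counts. Directions of change from G14.5 to G18.5 were mixed: Hspa13 was at -0.74 ± 0.20, Dnajb9 at -0.72 ± 0.26 and Hspa5 at -0.35 ± 0.15, while Ern1 was at 0.41 ± 0.16. The count against G0 was 8 or 9 when the first or the second G0 library was left out and 10 or more without any other library.

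Every day was set against the same G0 libraries, so calls on several days are not independent. The share of all genes called on as many days is not given here. Across the 9 gestation days, Derl3, Sdf2l1, P4hb and Txndc5 were called higher on 8, and Fkbp11, Edem1, Pdia3 and Dnajc3 on 7. Another 14 members were called higher on none. They are Dnajb9, Canx, Txndc11, Ero1l, Ero1lb, Herpud1, Syvn1, Sel1l, Derl1, Derl2, Atf6, Xbp1, Bhlha15 and Ufm1. So the HRD1 ligase core, Ero1l and the transcription factors Atf6, Xbp1 and Bhlha15 did not pass the test on any day, Ero1lb passed it at G18.5 as lower, and Hspa5 passed it at G14.5 and on no other gestation day.

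**Figure D2:**
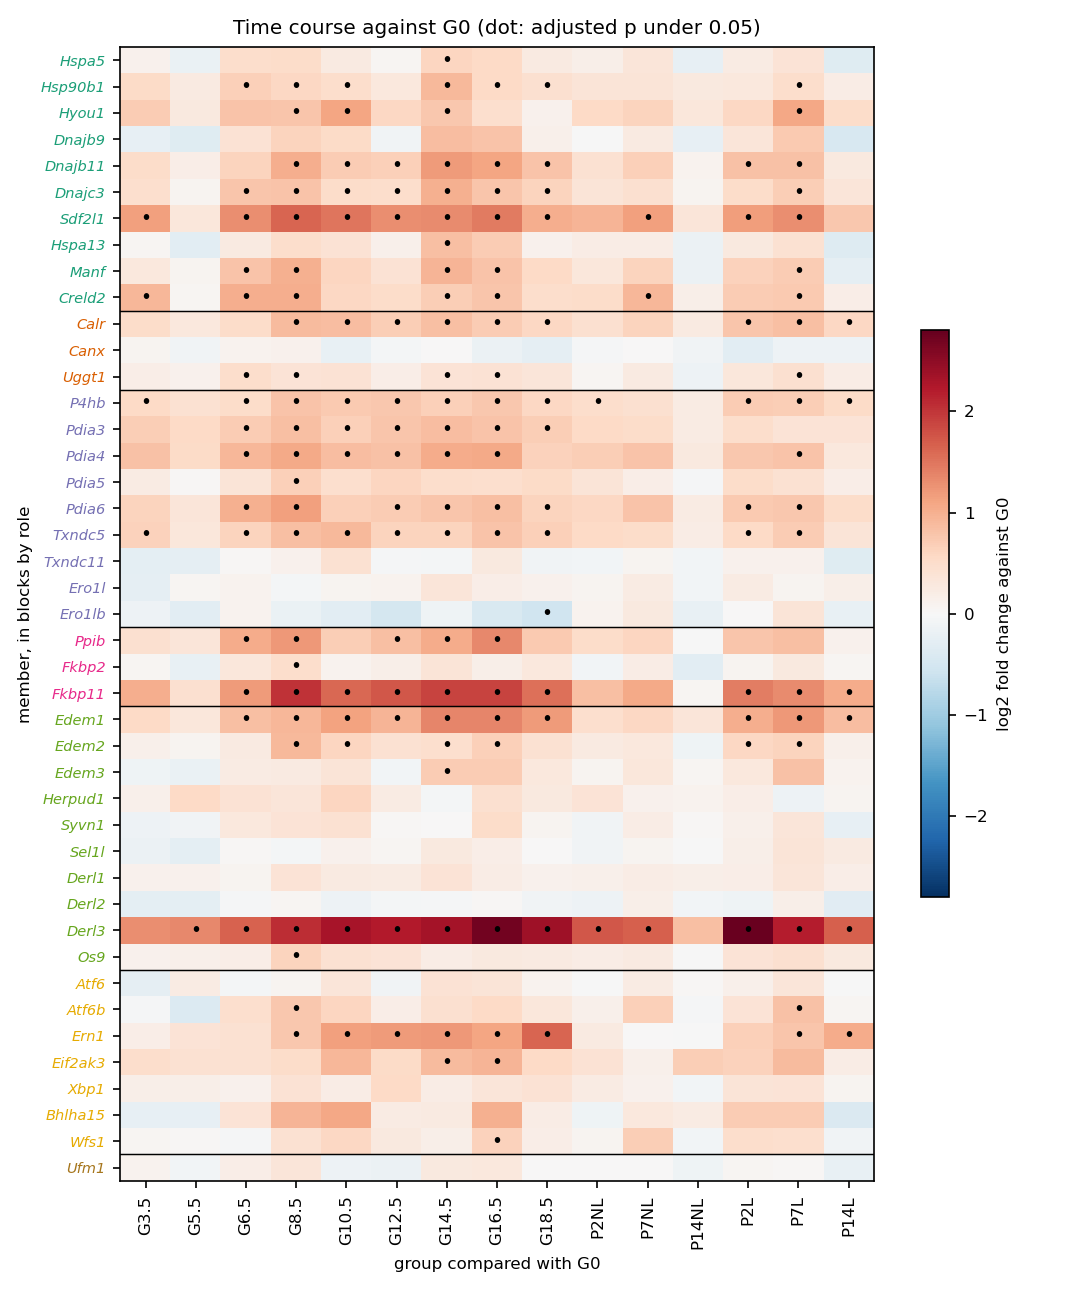
Log2 fold change against G0 (colour scale) of all 43 members (rows, grouped by role) on each day of gestation and after birth (columns), with a dot where edgeR called the gene at an adjusted p under 0.05. Dots are densest at G8.5, G14.5 and G16.5, with 24, 24 and 21 members called higher, and no dot is found at P14NL.

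After birth more members were above G0 in the L groups than in the NL groups, but the direct contrasts of L and NL called 1 member in all. Against G0, 10 members were higher at P2L (1.96% of all genes), 19 at P7L (2.54%) and 6 at P14L (2.30%). In the NL groups 2 were higher at P2NL (0.481%: Derl3 1.74 ± 0.35 and P4hb 0.50 ± 0.12), 3 at P7NL (0.371%: Derl3 1.66 ± 0.35, Sdf2l1 1.14 ± 0.25 and Creld2 0.93 ± 0.21) and none at P14NL by edgeR (0.280%; 3 members at an unadjusted p under 0.05 and 0 called by DESeq2). Derl3 was at 31.8 and 50.3 CPM at P2L, 32.2 and 23.6 at P7L and 12.7, 19.7 and 25.5 at P14L. In the NL groups it was at 24.9 and 15.7, 19.1 and 19.4, and 8.15 and 13.6 CPM. The highest NL value, at P2NL, lies inside the range of P14L.

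Ern1 was the member that passed the test of L against NL. At P14L it was at 70.3, 67.9 and 100 CPM, and at P14NL at 36.2 and 40.7 CPM, inside the range at G0. The log2 fold change was 1.05 ± 0.19 (edgeR, adjusted p = 0.0017; 0.611% of all genes were higher), and the call was lost without P14NL replicate 1. At P7 the groups did not overlap either, at 62.1 and 70.4 against 41.8 and 36.7 CPM (0.75 ± 0.20, adjusted p = 0.0656). No member was called at P7 (0.839% of all genes; 3 members at an unadjusted p under 0.05, 2 called by DESeq2, 1 by edgeR without P7NL replicate 2) or at P2 (0.124%; 11 and 0). Edem1 was close to Ern1 at P7, with a change of 0.62 ± 0.16 (adjusted p = 0.0515).

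Between G18.5 and P2NL, 2 members fell and 1 rose (0.930% and 0.371% of all genes). Ern1 dropped from 113.1, 139.8 and 108.9 to 47.2 and 45.4 CPM (-1.38 ± 0.19, adjusted p = 3.83e-05), and Edem1 fell too (-0.73 ± 0.15). Ero1lb went the other way, from 895, 1048 and 972 to 1551 and 1517 CPM (0.66 ± 0.16, adjusted p = 0.0331). The groups did not overlap for Ern1 or Ero1lb. The count of 3 fell to 2 without G18.5 replicate 1 or 3 or P2NL replicate 1, and to 1 without P2NL replicate 2. The P2L count was 2 without P2L replicate 2 and 4 without G0 replicate 1. The P7L count was 6 without G0 replicate 1, 7 without P7L replicate 1 and 11 without P7L replicate 2, and the P14L count was 2 without G0 replicate 1 and 4 without P14L replicate 3. The P2NL and P7NL counts were 0 without either G0 library, without P2NL replicate 1 and without P7NL replicate 2.

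The rise at G14.5 could be looked at in 5 further sets of mice that share no library with the time course: the WT groups of the Acss2, Stat3 and p300 sets and, on the high-fat diet, the mice without a genotype label and the Acss2 WT. Of 40 members measured in all 6 sets, 26 had a positive fold change in every one. Derl3 was called in 6 of 6 sets, with log2 fold changes of 1.61 to 2.33, and Ern1 in 5 of 6 (0.79 to 1.54). Fkbp11 (0.99 to 1.89) and Edem1 (0.64 to 1.36) were positive in 6 and called in 4. Of these 40 members, 9 were called in at least 2 sets and 28 in at least 1, against 2.60% and 9.15% of the 9630 genes tested in all 6 sets. A positive fold change in every set was found in 12.1% of those genes. Canx (-0.25 to 0.02), Txndc11 (-0.43 to 0.37) and Ero1lb (-0.29 to 0.11 in 5 sets) were called in none, and Xbp1 (0.21 to 0.96), Hspa5 (0.09 to 0.59) and Calr (0.33 to 0.85) in 2, 1 and 2.

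**Figure D3:**
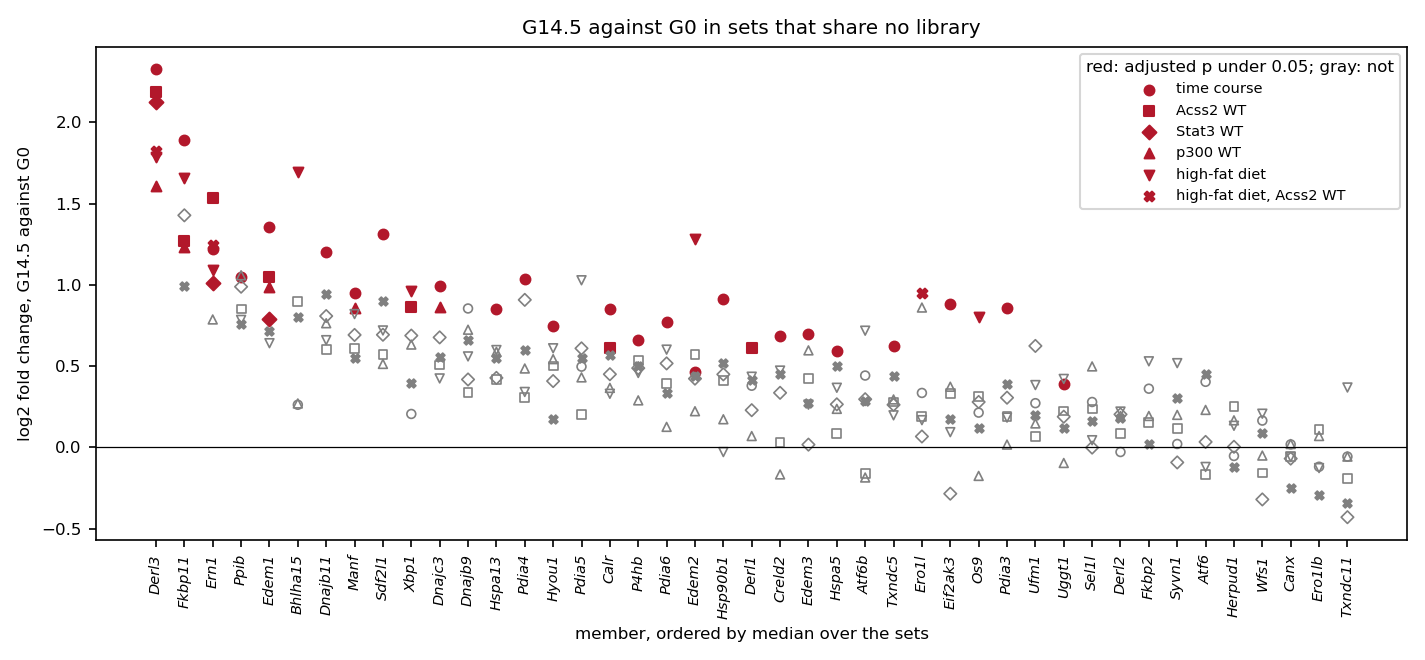
Log2 fold change of members at G14.5 against G0 (vertical axis) in 6 sets that share no library, with members along the horizontal axis, 1 mark per set and red where edgeR called the gene. Derl3 lies between 1.61 and 2.33 in the 6 sets, while Canx lies between -0.25 and 0.02.

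ACSS2 makes acetyl-CoA from acetate, and its knockout set asked whether the change needs the enzyme. At G14.5, 7 members were higher than G0 in Acss2 WT cells (2.01% of all genes) and 12 in knockout cells (2.86%). Derl3 went from 5.67 and 13.3 to 43.03 and 43.3 CPM in WT cells (2.19 ± 0.38) and from 18.46 and 10.6 to 53.2 and 48.6 CPM in knockout cells (1.81 ± 0.37). Ern1 (1.54 ± 0.16 and 0.88 ± 0.16), Fkbp11 (1.27 ± 0.31 and 1.67 ± 0.31), Edem1 (1.05 ± 0.21 and 0.95 ± 0.21), Xbp1 (0.87 ± 0.16 and 0.74 ± 0.16) and Calr (0.61 ± 0.14 in both) were called in both genotypes. Ppib (1.52 ± 0.29) and Bhlha15 (1.10 ± 0.26) were among those called in the knockout. The WT count was 1 without G0 WT replicate 1 and 4 without G14.5 WT replicate 2, and the knockout count was 0 without G0 knockout replicate 2, 2 or 4 without a G14.5 knockout library and 7 without G0 knockout replicate 1. Between knockout and WT no member passed the test at G0 by edgeR (0.00711% of all genes were called; 0 members at an unadjusted p under 0.05 and 0 by DESeq2) or at G14.5 (0.0213%; 9 and 2). The interaction of day and genotype at G14.5 called none (0.0213%; 3 and 0).

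At G18.5 the counts of the genotypes were further apart. In Acss2 WT cells 17 members were higher than at G0 (4.10% of all genes), with Derl3 (1.83 ± 0.37), Bhlha15 (1.81 ± 0.27), Fkbp11 (1.81 ± 0.31), Ppib (1.76 ± 0.29) and Manf (1.08 ± 0.17) among them. Beside these, 7 of 13 immediate-early and heat-shock genes, 3 of 9 α-cell, both PP-cell and 4 of 12 hepatocyte markers were called lower in the WT, and 2 of 15 acinar markers higher, which summed to 2.09 and 1.97 CPM at G0 and to 33.8 and 1.97 CPM at G18.5. Their part was not tested. The count was 17 when cells rich in other hormones or acinar transcripts were left out. That filter does not look at immediate-early, heat-shock or hepatocyte transcripts. In knockout cells 3 were higher (1.70%): Ern1 (1.35 ± 0.16), Edem1 (0.91 ± 0.21) and Xbp1 (0.72 ± 0.16). Knockout against WT at G18.5, 40 of 43 fold changes were negative, with a member median of -0.40 and a median of 0.01 over all genes. The 3 that were not negative were Xbp1 (0.34), Ern1 (0.21) and Sel1l (0.01). Dnajb9, the BiP partner that holds IRE1α in check, was the 1 member called (0.0711% of all genes were lower). It was at 171 and 162 CPM in the knockout and at 326 and 319 CPM in the WT, with a log2 fold change of -0.95 ± 0.15 (adjusted p = 0.0196). Ppib (-1.24 ± 0.28, adjusted p = 0.0824), Bhlha15 (-1.22 ± 0.26, adjusted p = 0.0757) and Manf (-0.81 ± 0.17, adjusted p = 0.0661) did not pass the test. With DESeq2 13 members were called, and 15 by edgeR with no filter on low counts, without a share of all genes given for either.

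The interaction at G18.5 called no member by edgeR (0.0142% of all genes). Its median over the members was -0.60, with 24 at an unadjusted p under 0.05 and 9 called by DESeq2. No share of all genes is given for these 24 and 9, so they cannot be set against one. Dnajb9 was at -1.24 ± 0.21 (adjusted p = 0.0921) and Bhlha15 at -1.65 ± 0.37. So the difference between genotypes in the response to gestation did not pass the main test. The call of Dnajb9 was lost without either knockout library or without WT replicate 2, and 5 members were called without WT replicate 1. The WT count of 17 was 6 without G0 WT replicate 1, and the knockout count of 3 was 1 without G0 knockout replicate 2. Other values moved with these groups: insulin took 57.7% and 69.8% of reads in the WT and 56.2% and 55.3% in the knockout, and summed immediate-early and heat-shock genes were at 1003 and 604 against 1468 and 1374 CPM. Their part was not tested. With scaling that left out Ins1 and Ins2, which bears on library scaling only, the change of Dnajb9 was called, at -0.94.

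STAT3 is a cytokine-activated transcription factor. In the Stat3 set 40 members were tested. At G14.5, 3 members were higher in cells labelled Stat3 WT (1.26% of all genes: Derl3 2.13 ± 0.48, Ern1 1.01 ± 0.21 and Edem1 0.79 ± 0.16) and 2 in cells labelled knockout (1.36%: Ern1 1.38 ± 0.21 and Edem1 0.97 ± 0.16). At G18.5 the counts were 3 (1.59%: Derl3 2.37 ± 0.48, Edem1 0.93 ± 0.16 and Ern1 0.84 ± 0.21) and 1 (1.06%: Ern1 1.05 ± 0.21). Derl3 was at 14.8 and 7.53 CPM at G0, 44.6 and 54.1 at G14.5 and 92.8 and 23.4 at G18.5 in the WT. In the knockout it was at 16.99 and 20.3, 37.8 and 21.01, and 29.1 and 39.9 CPM. Both genotypes were above their own G0 libraries at both days, but the knockout changes of 0.66 ± 0.46 and 0.89 ± 0.46 did not pass the test.

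No member passed the test between the Stat3 labels by edgeR. At G0 0.00% of all genes were called (0 genes; 2 members at an unadjusted p under 0.05 and 0 by DESeq2), at G14.5 0.00980% (6 and 0) and at G18.5 0.0196% (2 and 0). The interactions called none at G14.5 (0.00% of all genes; 5 and 0) or G18.5 (0.0392%; 5 and 1). For Derl3 the interaction at G14.5 was -1.47 ± 0.65, with a 95% interval from -2.85 to -0.09 (adjusted p = 0.599). The WT count was 0 without either G0 WT library or G14.5 WT replicate 1 and 1 without G14.5 WT replicate 2. At G18.5 it was 1 without either G0 WT library or G18.5 WT replicate 1, and the knockout count was 0 without any 1 of its 4 libraries.

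p300 (Ep300) acetylates histones at enhancers and promoters. In this set the genotypes already differed at G0: 6 members were higher in the p300 knockout (0.475% of all genes) and 1 lower (1.06%). Bhlha15, a transcription factor of secretory cells, was at 93.7 and 91.4 CPM in the knockout against 25.8 and 37.6 in the WT (1.54 ± 0.20, adjusted p = 0.00234), a call kept under every alternative. Pdia4 was at 196 and 170 against 83.8 and 83.7 CPM (1.13 ± 0.19), Creld2 at 227 and 187 against 78.5 and 116.3 CPM (1.09 ± 0.21), and Hspa5 at 1162 and 1085 against 718 and 609 CPM (0.76 ± 0.15). None of these overlapped. Dnajb11 (0.91 ± 0.19) and Manf (0.87 ± 0.18) were the others. Ern1 was the member called lower, at 24.9 and 25.2 CPM in the knockout against 58.3 and 82.2 in the WT (-1.49 ± 0.24, adjusted p = 0.0097). The count of 7 was 1 without either knockout library and 4 without WT replicate 1, and it was 16 with DESeq2. Insulin took 53.5% and 53.2% of reads in the knockout and 58.2% and 64.04% in the WT, and that part was not tested. Scaling without Ins1 and Ins2 bears on library scaling only. With it the change of Ern1 was -1.49 and that of Hspa5 was 0.76, both called.

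From G0 to G14.5, 5 members rose in p300 WT cells (1.25% of all genes): Derl3 (1.61 ± 0.33), Fkbp11 (1.23 ± 0.29), Edem1 (0.99 ± 0.16), Dnajc3 (0.86 ± 0.17) and Manf (0.86 ± 0.18). In knockout cells 4 rose (2.14%) and 1 fell (1.13%). Ern1 rose from 24.9 and 25.2 to 79.5 and 112.4 CPM (1.94 ± 0.24), Calr by 0.93 ± 0.14, Edem3 by 0.93 ± 0.19 and Edem1 by 0.87 ± 0.16. Creld2 fell from 227 and 187 to 126.5 and 106.6 CPM (-0.83 ± 0.21). At G14.5 no gene passed the test between the genotypes by edgeR (0 genes, 0.00%). At an unadjusted p under 0.05 there were 17 members, and DESeq2 called 7, with no share of all genes given for these counts. Bhlha15 was closest there, at 87.3 and 86.7 against 37.8 and 38.9 CPM (1.18 ± 0.20, adjusted p = 0.0582). The interaction called no member (0.0668% of all genes; 8 and 1), with Ern1 at 1.15 ± 0.33 (adjusted p = 0.292). The WT count was 1 without G14.5 WT replicate 1 and 2 without G0 WT replicate 1 or G14.5 WT replicate 2, and the knockout count was 1 without either G0 knockout library and 2 without G14.5 knockout replicate 1.

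**Figure D4:**
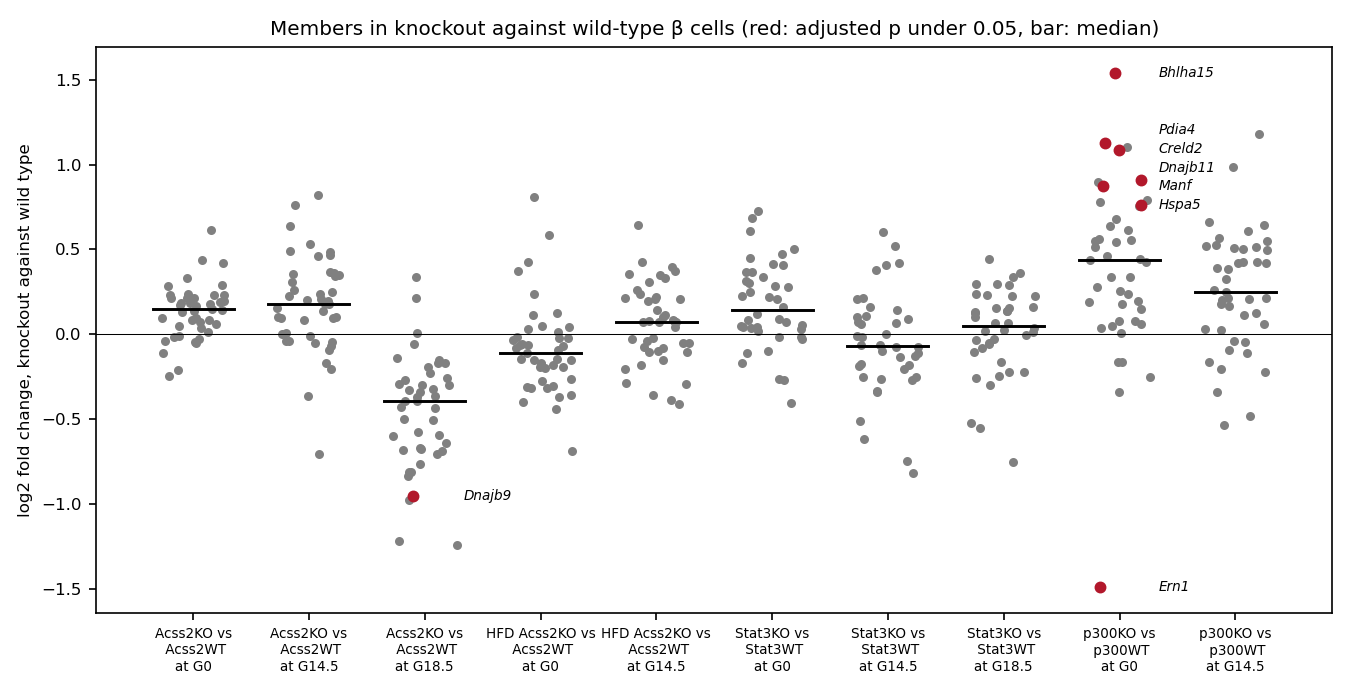
Log2 fold change of each member, knockout against WT (vertical axis), in 10 comparisons (horizontal axis), with 1 point per member, called members in red and named, and a bar at the median. The p300 knockout at G0 has 7 called members and the Acss2 knockout at G18.5 has Dnajb9 at -0.95.

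On the high-fat diet, Derl3 and Ern1 were called higher at G14.5 in the mice without a genotype label and in the Acss2 WT, and Fkbp11 in the mice without a genotype label and in the Acss2 knockout. In mice without a genotype label 7 members were higher at G14.5 than at G0 (1.22% of all genes): Derl3 (1.79 ± 0.43), Bhlha15 (1.69 ± 0.36), Fkbp11 (1.66 ± 0.29), Edem2 (1.28 ± 0.26), Ern1 (1.09 ± 0.20), Xbp1 (0.96 ± 0.20) and Os9 (0.81 ± 0.16). Derl3 went from 12.7 and 7.43 to 25.05, 29.7 and 49.3 CPM and Ern1 from 39.7 and 54.6 to 94.2, 105.8 and 101.9 CPM, both without overlap. At P7NL 3 members were below G14.5 (0.956%): Fkbp11 (-1.42 ± 0.29), Ern1 (-1.20 ± 0.20; 42.1 and 45.5 CPM) and Fkbp2 (-0.75 ± 0.16). Against G0 no gene was called at P7NL by edgeR (0.00%; 5 members at an unadjusted p under 0.05 and 0 by DESeq2). HFD G14.5 replicate 3 carried 8879 CPM of α-cell markers against 2225 to 3350 in the other HFD G0 and G14.5 libraries of this genotype, and without it the count of 7 was 3. It was 1 without HFD G0 replicate 1 and 0 without HFD G0 replicate 2. The P7NL count was 0 without either P7NL library, 1 without HFD G14.5 replicate 3 and 2 without HFD G14.5 replicate 1.

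In Acss2 mice on the high-fat diet, 3 members rose at G14.5 in the WT (1.38% of all genes): Derl3 (1.82 ± 0.45), Ern1 (1.25 ± 0.21) and Ero1l (0.95 ± 0.24). In the knockout 10 rose (2.31%), led by Bhlha15 (1.56 ± 0.38), Fkbp11 (1.38 ± 0.31), Hspa13 (1.29 ± 0.31), Dnajb11 (1.25 ± 0.27) and Edem1 (1.01 ± 0.25), and with Calr (1.00 ± 0.18), Edem3, Dnajc3, Hsp90b1 and Sel1l among them. Fkbp11 in the WT had a change of 0.99 ± 0.31 (adjusted p = 0.120). In the knockout Derl3 was at 7.83 and 21.9 and then at 28.2 and 24.6 CPM (0.85 ± 0.45, adjusted p = 0.312), and Ern1 had a change of 0.67 ± 0.21 (adjusted p = 0.0826). Between knockout and WT no member passed the test by edgeR at G0 (0.00%; 1 at an unadjusted p under 0.05 and 1 by DESeq2) or G14.5 (0.0638%; 3 and 0), and the interaction called none (0.0142%; 1 and 0). Between high-fat and standard diet at G14.5 in Acss2 WT mice no member passed it either (0.213% of all genes; 0 and 0). Derl3 was at 25.4 and 43.7 CPM on the high-fat diet and at 33.8 and 33.6 CPM on the standard diet. The knockout count ranged from 0 without G14.5 knockout replicate 1, the library with 517 CPM of acinar markers, through 1 without G0 knockout replicate 1 and 2 without G14.5 knockout replicate 2, to 19 without G0 knockout replicate 2. The WT count was 0 without G14.5 WT replicate 2, 1 without either G0 WT library and 2 without G14.5 WT replicate 1, and 1 member was called between genotypes at G0 without G0 knockout replicate 1.

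In cultured islets, Ern1 and Fkbp11 were higher in maternal than in normal serum in both culture sets, which share no library. With the vehicle of the A485 set, Ern1 was at 177 and 431 CPM in maternal serum against 68.1 and 90.4 CPM in normal serum (1.94 ± 0.35, adjusted p = 0.0342), and Fkbp11 at 124.1 and 127.7 against 71.3 and 62.6 CPM (0.91 ± 0.18). These were the 2 members called (0.516% of all genes). In the nifuroxazide set Ern1 was at 254 and 506 against 98.2 and 80.3 CPM (2.09 ± 0.26, adjusted p = 0.00104) and Fkbp11 at 156.4 and 208.5 against 75.7 and 98.8 CPM (1.06 ± 0.20), with 0.593% of all genes higher. Ero1lb was lower there, at 1242 and 1230 against 2368 and 2685 CPM (-1.03 ± 0.14, with 0.430% of all genes lower). In the A485 set the same contrast gave -0.32 ± 0.14 for Ero1lb, which did not pass the test. Other cell markers moved with the serum. In the A485 set summed δ-cell markers were at 36.9 and 16.1 CPM in maternal against 2484 and 476 CPM in normal serum, with 1 of 4 tested called lower, and insulin took 51.2% and 41.7% against 61.3% and 59.9% of reads. In the nifuroxazide set summed α-cell markers were at 1505 and 1323 against 4473 and 2401 CPM (1 of 7 called lower) and immune markers at 29.2 and 45.4 against 82.9 and 84.4 CPM (1 of 4 called lower), and 2 of 12 β-cell markers were called lower. The part of these in the result was not tested. The counts were 2 and 3 when cells rich in other hormones or acinar transcripts were left out. That filter does not look at insulin, immune or β-cell markers. The count of 2 was 0 without the second maternal serum library or either normal serum library, and 1 with scaling that left out Ins1 and Ins2. The count of 3 was 2 without the second maternal serum library or either normal serum library.

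A485 lowered members in both sera. In normal serum 9 members fell and none rose (2.00% of all genes fell), and in maternal serum 14 fell (2.60%). Ero1lb fell from 1452 and 1850 to 551 and 604 CPM in normal serum (-1.51 ± 0.14, adjusted p = 0.000375) and from 1438 and 1216 to 442 and 400 CPM in maternal serum (-1.66 ± 0.15, adjusted p = 0.000186). Fkbp11 fell from 71.3 and 62.6 to 17.7 and 25.1 CPM (-1.65 ± 0.19) and from 124.1 and 127.7 to 46.5 and 54.9 CPM (-1.31 ± 0.18). Edem1 (-1.24 ± 0.17 and -1.17 ± 0.17), Bhlha15 (-1.22 ± 0.28 and -1.67 ± 0.28) and Dnajb9 (-0.89 ± 0.16 and -1.07 ± 0.16) fell in both sera. For Ero1lb, Fkbp11 and Edem1 every A485 library lay below both vehicle libraries of its serum. Sdf2l1 (-0.77 ± 0.15 and -0.76 ± 0.15), Derl2 (-0.61 ± 0.14 and -0.86 ± 0.14) and Ufm1 were called in both sera as well, and Dnajb11 (-0.68 ± 0.15) in normal serum.

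Ern1 was called with A485 in maternal serum, from 177 and 431 to 84.9 and 138.9 CPM (-1.44 ± 0.34, adjusted p = 0.0418), and had a change of -0.63 ± 0.34 in normal serum, which did not pass the test. Manf (-0.88 ± 0.15), Edem2 (-0.80 ± 0.18), Derl1 (-0.76 ± 0.16), Fkbp2 (-0.69 ± 0.14) and Wfs1 were the others called in maternal serum. Hspa5 (-0.59 ± 0.14 and -0.51 ± 0.14), Xbp1 (-0.37 ± 0.18 and -0.24 ± 0.18) and Canx (-0.25 ± 0.12 and -0.12 ± 0.12) did not pass the test in either serum. The interaction of serum and A485 called no member by edgeR (0.00738% of all genes; 0 at an unadjusted p under 0.05 and 0 by DESeq2). For Ern1 it was -0.82 ± 0.48, with a 95% interval from -1.86 to 0.23. With A485 present, Fkbp11 was still higher in maternal serum (1.25 ± 0.18; 0.266% of all genes were higher), a call lost without the second maternal or the first normal serum library.

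Beside the fall of members with A485, insulin reads went from 61.3% and 59.9% to 48.1% and 49.6% in normal serum and from 51.2% and 41.7% to 35.5% and 36.3% in maternal serum. Immediate-early and heat-shock genes summed to 1199 and 1261 against 2513 and 2297 CPM in normal serum and to 1787 and 1913 against 3274 and 3150 CPM in maternal serum, with 4 of 13 called higher in each. Of 12 β-cell markers 4 were called lower in each serum. The part of these in the result was not tested. Scaling without Ins1 and Ins2, which bears on library scaling only, left 8 members called in normal serum and 14 in maternal serum. Leaving out 1 library left 2 (without the second A485 library) or 3 members in normal serum. In maternal serum it left 1 without the first A485 library, 8 without the second vehicle library, and 10 or 16 otherwise. DESeq2 called 19 members in normal serum and 23 in maternal serum, with no share of all genes given for that test.

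With nifuroxazide 3 calls were made over both sera. In normal serum Ero1lb alone was called, falling from 2368 and 2685 to 894 and 1039 CPM (-1.39 ± 0.14, adjusted p = 0.000201; 1.15% of all genes fell). In maternal serum Fkbp11 fell from 156.4 and 208.5 to 67.8 and 62.1 CPM (-1.49 ± 0.20, adjusted p = 0.00283) and Ern1 from 254 and 506 to 157.7 and 155.5 CPM (-1.28 ± 0.25, adjusted p = 0.0344), with 0.356% of all genes lower. Edem1 had changes of -0.11 ± 0.16 and 0.07 ± 0.16 and did not pass the test. Ern1 in normal serum was at 98.2 and 80.3 against 119.2 and 104.02 CPM (0.32 ± 0.25), and Ero1lb in maternal serum had a change of -0.51 ± 0.14 (adjusted p = 0.149). The interaction of serum and nifuroxazide called no gene by edgeR (0 genes, 0.00%; 5 members at an unadjusted p under 0.05 and 2 called by DESeq2, 1 by edgeR without the first maternal vehicle library). With a 95% interval it was -1.60 (-2.37 to -0.83) for Ern1 and 0.88 (0.46 to 1.29) for Ero1lb, both with an adjusted p of 0.244.

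With nifuroxazide present, no member passed the test between maternal and normal serum by edgeR (0.490% of all genes; 3 and 0, and 1 without the second normal serum library). The libraries were small, with 21 cells in each normal serum library with nifuroxazide. Insulin reads were at 47.7% and 49.1% with the vehicle and 37.9% and 38.5% with nifuroxazide in normal serum, and 6 of 12 β-cell markers were called lower there, so that drop ran beside that of Ero1lb and its part was not tested. Scaling without Ins1 and Ins2, which bears on library scaling only, kept the counts of 1 and 2. In maternal serum the count was 0 without the second nifuroxazide library and 1 without the first nifuroxazide or the second vehicle library, and in normal serum it was 2 without the second nifuroxazide library.

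**Figure D5:**
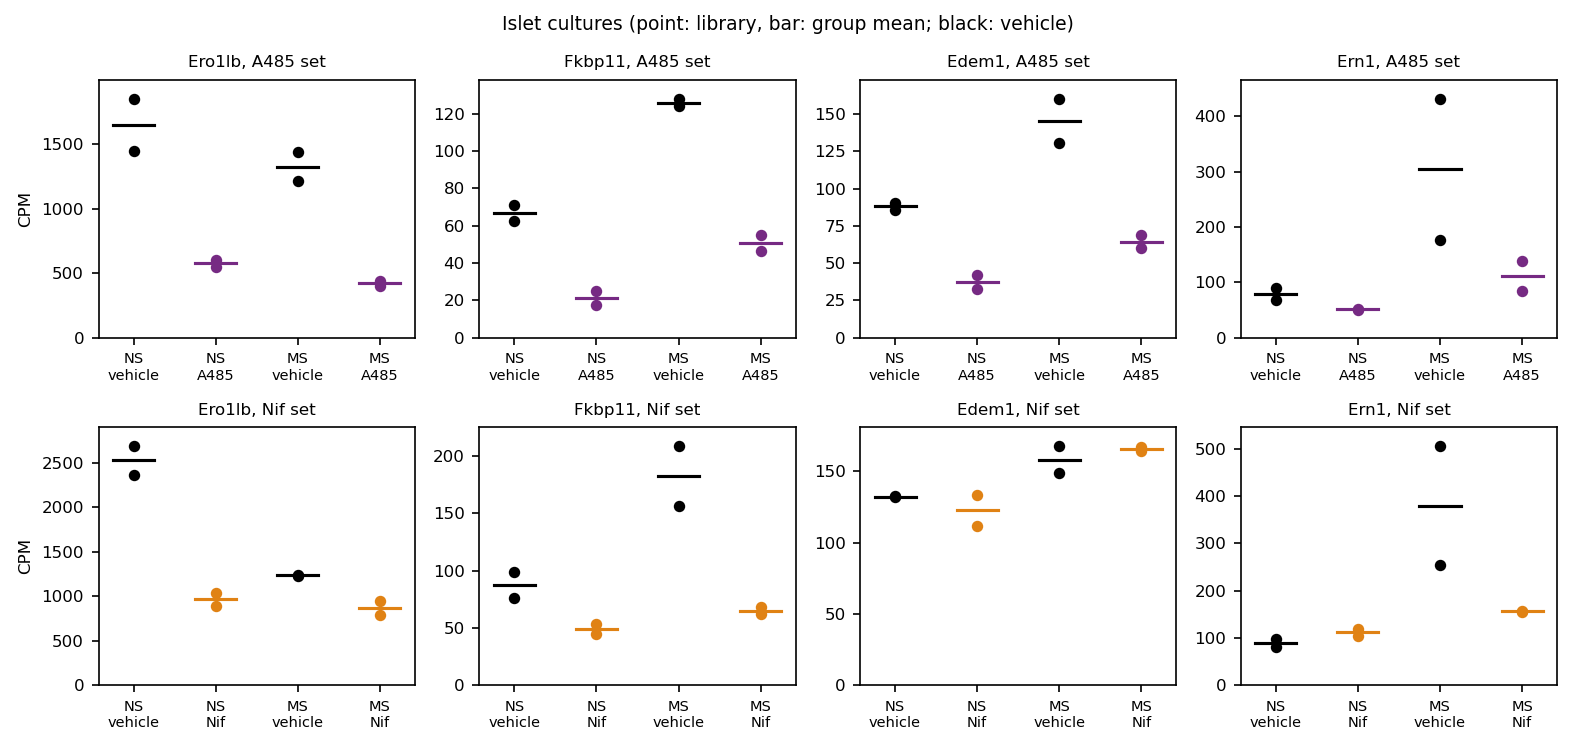
CPM (vertical axis) of Ero1lb, Fkbp11, Edem1 and Ern1 in every library of the culture sets, by serum and treatment (horizontal axis), with 1 point per library and a bar at each group mean. Ero1lb drops with A485 in both sera, from 1216 to 1850 CPM down to 400 to 604 CPM.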

How the data were processed

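Single β cells were read with Smart-seq3xpress. The authors deposited raw counts of reads per gene and cell in 7 tables, with the gene's length in base pairs as another column. Per the submitters' processing notes the tools include Trimmomatic 0.39 and featureCounts 2.0.1 and the build is GRCm38, or mm10; the aligner was not given. Reads, not molecular identifiers, were counted, so amplification is part of the values. The 2 samples read with 10x were not analysed here.

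For each group and replicate the cells' reads were added up, since cells are not replicates. Each table was fitted once over all its groups with edgeR 4.0.16 (R 4.3.3; TMM scaling, filterByExpr, quasi-likelihood test), and p-values were adjusted by Benjamini-Hochberg over all genes tested, with 0.05 as the threshold. Over the 62 comparisons no further adjustment was made. Shares of all genes are those called by edgeR at the adjusted threshold. No such share is given for member counts at an unadjusted p, by DESeq2 or under the other alternatives. CPM, which are counts scaled to a fixed total, use TMM library sizes, and levels of different genes are compared only per kilobase of the deposited length. Interactions are differences between fold changes. Alternatives used DESeq2 1.42.0 and limma 3.58.1, other filters, scaling and cells, a replicate block, and leaving out each library, where the tested genes and the trended dispersion of the full fit were kept. The scripts were tested on simulated data.

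Libraries shown for every value are those of the 6 members with the largest change at G14.5 among those called with no overlap, and of Hspa5, Xbp1, Atf6, Ern1, Eif2ak3, Ero1l and Ero1lb. Elsewhere the members called are named, up to 10 by fold change, and other members named with their values were chosen after these were seen. The members, lists and comparisons were chosen with earlier results of these data known. A gene of the wider ERAD list is not reported here and was taken out of it. Deposited symbols Ero1l and Ero1lb are Ero1a and Ero1b in RefSeq. Gene and promoter positions are from RefSeq, GRCm38.p6.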

Additional observations from a re-analysis of the deposited data

How the results depend on the processing

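Of 680 member fold changes followed, no called value changed sign under the alternatives tried, which gave 7125 values. Counts of members called did move. No share of all genes is given under these alternatives, so a higher count cannot be set against one. Day names alone mean that day against G0, and group names are those of the labels. Leaving out cells rich in other hormones or in acinar transcripts kept every count within 1.5 times. Scaling without Ins1 and Ins2 gave 5 for P7NL, 2 for P14L against P14NL, 1 for MS against NS with vehicle in the A485 set. With no filter on low counts the counts rose to 14 for G3.5, 4 for G5.5, 25 for G10.5, 20 for P2L, 10 for P14L, 9 for P2NL, 14 for P7NL, 1 for P14NL, 3 for P2L against P2NL, 2 for P7L against P7NL, 5 for P14L against P14NL, 6 for G18.5 against G14.5, 5 for P2NL against G18.5, 14 for Acss2WT G14.5, 3 for Acss2KO against Acss2WT at G14.5, 15 for Acss2KO against Acss2WT at G18.5, 8 for Acss2 interaction G18.5, 12 for Stat3WT G14.5, 9 for Stat3WT G18.5, 5 for Stat3KO G18.5, 1 for Stat3KO against Stat3WT at G14.5, 1 for Stat3 interaction G14.5, 1 for Stat3 interaction G18.5, 11 for p300WT G14.5, 10 for p300KO G14.5, 14 for p300KO against p300WT at G0, 4 for p300KO against p300WT at G14.5, 2 for p300 interaction G14.5, 19 for HFD G14.5, 14 for HFD P7NL against G14.5, 1 for HFD P7NL, 10 for HFD Acss2WT G14.5, 20 for HFD Acss2KO G14.5, 1 for HFD Acss2KO against Acss2WT at G0, 9 for MS against NS with vehicle in the A485 set, 18 for A485 against vehicle in NS, 25 for A485 against vehicle in MS, 6 for MS against NS with A485, 11 for MS against NS with vehicle in the nifuroxazide set, 4 for Nif against vehicle in NS, 5 for Nif against vehicle in MS, 2 for MS against NS with Nif, 2 for Nif interaction. DESeq2's Wald test gave 13 for G3.5, 3 for G5.5, 12 for P7NL, 2 for P7L against P7NL, 4 for P14L against P14NL, 5 for G18.5 against G14.5, 11 for Acss2WT G14.5, 2 for Acss2KO against Acss2WT at G14.5, 13 for Acss2KO against Acss2WT at G18.5, 9 for Acss2 interaction G18.5, 8 for Stat3WT G14.5, 6 for Stat3WT G18.5, 2 for Stat3KO G18.5, 1 for Stat3 interaction G18.5, 14 for p300WT G14.5, 11 for p300KO G14.5, 16 for p300KO against p300WT at G0, 7 for p300KO against p300WT at G14.5, 1 for p300 interaction G14.5, 12 for HFD G14.5, 9 for HFD P7NL against G14.5, 7 for HFD Acss2WT G14.5, 1 for HFD Acss2KO against Acss2WT at G0, 8 for MS against NS with vehicle in the A485 set, 19 for A485 against vehicle in NS, 23 for A485 against vehicle in MS, 5 for MS against NS with A485, 8 for MS against NS with vehicle in the nifuroxazide set, 3 for Nif against vehicle in NS, 4 for Nif against vehicle in MS, 2 for Nif interaction. With an equal weight per cell in limma the counts were 0 for G3.5, 0 for G5.5, 1 for P2NL, 1 for P7L against P7NL, 0 for P14L against P14NL, 6 for Acss2KO G14.5, 7 for Acss2WT G18.5, 0 for Acss2KO against Acss2WT at G18.5, 1 for Stat3WT G14.5, 6 for Stat3WT G18.5, 11 for p300WT G14.5, 15 for p300KO against p300WT at G0, 1 for HFD Acss2WT G14.5, 1 for HFD Acss2KO G14.5, 12 for MS against NS with vehicle in the A485 set, 5 for A485 against vehicle in NS, 6 for A485 against vehicle in MS, 2 for MS against NS with A485, 7 for Nif against vehicle in NS, 1 for Nif against vehicle in MS. The cause of these shifts was not tested. The replicate block gave 8 for G3.5, 8 for P7NL, 1 for P7L against P7NL, 1 for G18.5 against G14.5, 3 for HFD G14.5, 1 for HFD P7NL against G14.5, 15 for A485 against vehicle in NS, 2 for MS against NS with A485, 2 for Nif against vehicle in NS, and changed no other count by over 1.5 times. Same-numbered replicates did not deviate together (correlations of -0.12 to 0.14). With 2 libraries in most groups, this cannot show whether they shared more than a number. With 1 library left out at a time, which removes samples, the counts were 0 to 5 for G3.5, 0 to 0 for G5.5, 0 to 8 for G6.5, 12 to 18 for G8.5, 7 to 10 for G10.5, 7 to 12 for G12.5, 15 to 27 for G14.5, 13 to 17 for G16.5, 8 to 17 for G18.5, 2 to 14 for P2L, 6 to 14 for P7L, 2 to 7 for P14L, 0 to 2 for P2NL, 0 to 2 for P7NL, 0 to 1 for P7L against P7NL, 0 to 2 for P14L against P14NL, 0 to 9 for G18.5 against G14.5, 1 to 3 for P2NL against G18.5, 1 to 8 for Acss2WT G14.5, 0 to 7 for Acss2KO G14.5, 6 to 15 for Acss2WT G18.5, 1 to 2 for Acss2KO G18.5, 0 to 5 for Acss2KO against Acss2WT at G18.5, 0 to 1 for Stat3WT G14.5, 1 to 3 for Stat3WT G18.5, 0 to 0 for Stat3KO G18.5, 1 to 6 for p300WT G14.5, 1 to 4 for p300KO G14.5, 1 to 6 for p300KO against p300WT at G0, 0 to 9 for HFD G14.5, 0 to 4 for HFD P7NL against G14.5, 0 to 2 for HFD Acss2WT G14.5, 0 to 19 for HFD Acss2KO G14.5, 0 to 1 for HFD Acss2KO against Acss2WT at G0, 0 to 2 for MS against NS with vehicle in the A485 set, 2 to 3 for A485 against vehicle in NS, 1 to 16 for A485 against vehicle in MS, 0 to 1 for MS against NS with A485, 1 to 2 for Nif against vehicle in NS, 0 to 2 for Nif against vehicle in MS, 0 to 1 for MS against NS with Nif, 0 to 1 for Nif interaction. A group left with 1 library was assumed to vary like the others. Most groups had 2 libraries, so a member missing the threshold is not shown to be unchanged, and scarce genes such as Derl3, Eif2ak3 and Ero1l rest on the fewest reads.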
